A study of Mus musculus with 30 samples.

Results

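The comparison described here sets astrocytes sorted from the spinal cord of mice with experimental autoimmune encephalomyelitis (EAE) that had received a RIPK1 inhibitor (EAE-RIPK1inh, n = 5 libraries) beside astrocytes from naive mice (n = 4 libraries). These 9 of the 30 libraries of the series were used, together with 9 microglia libraries of the same treatments where the cell types are compared. Of 30952 genes in the table, 11207 had a mean level of at least 1 on the log2 FPKM scale over the 9 astrocyte libraries, and 11206 of them could be tested, mt-Cytb being at 15.3397 in every library. The genes nearest to that limit were Hoxb8 and Arhgap6, inside it with means of 1.00002 and 1.00039, and Zfp316 and Zfp442, outside it with 0.999978 and 0.998978. The EAE-RIPK1inh mice were female C57BL/6 animals immunized with a myelin oligodendrocyte glycoprotein peptide, and were given GSK'547, which the study's text calls RIPK1inh-1, by oral gavage at 50 mg/kg 2 times a day for 3 days from a clinical score of about 1. The study's methods add complete Freund's adjuvant and pertussis toxin to the immunization of its C57BL/6 EAE mice, and name Captisol as the dosing vehicle of this sort. The naive mice carry no other treatment in their labels, and ages are not given there. The methods give an age at immunization for the EAE mice but none for these naive mice. Both groups were perfused and their astrocytes were gated as GLAST+CD11b-CD45-CD140a- cells, so the gate selects on the protein of Slc1a3 and was set to leave out leukocytes, microglia and oligodendrocyte precursors. Libraries of EAE mice given vehicle were not used. Immunization with its adjuvant and toxin, disease, dosing and inhibitor therefore cannot be told apart in any difference given below.

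Astrocytes clear glutamate and potassium from the extracellular space, supply lipids to neighbouring cells and are joined to each other by gap junctions. In inflamed tissue they become reactive and express intermediate filament proteins such as GFAP, acute phase proteins and complement. Interferons bind receptors that signal through JAK kinases to STAT proteins and interferon regulatory factors (IRFs), which switch on guanylate-binding proteins, immunity-related GTPases, antiviral proteins, the immunoproteasome and the proteins that present antigen. RIPK1 is a kinase below the tumor necrosis factor receptor that can start inflammatory signaling or, through RIPK3 and MLKL, necroptosis.

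Astrocyte markers separated the astrocyte from the microglia libraries. The mean of 8 astrocyte markers lay between 8.10 and 9.55 in the astrocyte libraries and between 0.99 and 2.03 in the microglia libraries. Transcripts of other cell types were also measured, as the mean of 7 oligodendrocyte markers lay between 6.19 and 7.39 in naive and between 7.81 and 9.19 in EAE-RIPK1inh astrocytes, and the mean of 6 neuron markers between 3.88 and 5.41 over both groups. In EAE-RIPK1inh 3 and 4 the oligodendrocyte mean, 8.96 and 9.19, stood above the astrocyte mean, 8.56 and 8.10. In every other astrocyte library it stood below. Leukocyte markers are given further below. In bulk samples, more cells of a type and more RNA per cell cannot be told apart. All 30 libraries held the same set of values in a different order, so depth is unknown. A gene was taken to have signal where its value stood above the run of values that only followed the order of rows, and by that count the naive libraries had signal for 22981, 8815, 12389 and 10942 genes and the EAE-RIPK1inh libraries for 9898 to 14112. Naive 1 and naive 2 thus stood apart in opposite ways. Correlations between libraries ran from 0.555 to 0.812 within the naive group, from 0.532 to 0.764 within the EAE-RIPK1inh group and from 0.479 to 0.688 between them. These correlations run across genes and describe the libraries only.

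A gene was called here, by the cutoff of the study, when its levels differed by more than 1.5-fold at an unadjusted p under 0.05 in limma. By that cutoff 555 genes (4.95%) were higher and 671 (5.99%) lower in EAE-RIPK1inh, 1226 (10.9%) in all. Regardless of fold, 1230 genes had an unadjusted p under 0.05, where 560 would be 5% of those tested. In a simulation of this design 567 unshifted genes were called. That simulation drew each gene on its own, without shifts that many genes of a library share. It therefore cannot show how far the 1226 calls exceed chance. The Benjamini-Hochberg adjusted p was under 0.05 for 102 genes (0.910%), of which 77 were higher and 25 lower. That count was 61 without EAE-RIPK1inh 2, 54 without EAE-RIPK1inh 3 or 4, 212 without EAE-RIPK1inh 5 and 67 without naive 3. The groups did not overlap for 437 genes (3.90%), among them 80 of those 102. The median difference over all genes tested was -0.08 (log2, EAE-RIPK1inh minus naive). A gene near 0 in every naive library could reach the limit on the mean only through its EAE-RIPK1inh level. The counts of called list members below stand beside the 4.95% higher and 5.99% lower over all genes. With exact permutation of the 9 libraries the smallest p is 0.00794. The authors' annotation marks 6323 of the tested genes and 52 of the 102 as confounded without saying in what way, and the mark is given below for the genes that carry it.

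The interferon-inducible GTPases rose together, with 13 of 14 tested members called higher, none lower, and 11 with an adjusted p under 0.05. Their median difference was 5.67 (log2) beside -0.08 over all genes tested. Positions are those of the authors' annotation, which match GENCODE vM21 (GRCm38). These proteins assemble on the vacuoles of intracellular pathogens and break them open. Irgm1 (ENSMUSG00000046879, chr11:48861968-48871683, - strand) stood at 4.33, 4.61, 2.46 and 4.58 in naive and at 8.05, 9.73, 9.89, 10.03 and 9.28 in EAE-RIPK1inh astrocytes (log2 FPKM), so that every EAE-RIPK1inh library was above every naive one. The difference was 5.40 (SE 0.51, adjusted p = 7.57e-07 in limma). Gbp2 (ENSMUSG00000028270, chr3:142620602-142638008, + strand) was at 0.92, 0.12, 0.54 and 0.09 in naive and at 6.83, 8.08, 7.38, 7.61 and 6.66 in EAE-RIPK1inh libraries, a difference of 6.90 (SE 0.68, adjusted p = 1.05e-06). The naive levels of Gbp2 sat near the bottom of the scale, where the difference depends on any offset added before the logarithm, which is not stated. Iigp1 had signal in 1 naive library, naive 2 at 2.00, and was between 6.97 and 8.25 in the EAE-RIPK1inh libraries. Igtp was at 3.64, 2.41, 0 and 5.85 in naive and at 7.55, 9.89, 9.56, 10.27 and 9.70 in EAE-RIPK1inh libraries. The spread of Igtp among naive libraries was wide, but its groups did not overlap. Irgm2 had signal in 1 naive library and ranged from 5.94 to 7.96 in EAE-RIPK1inh. The annotated span of Irgm2 (chr11:58199618-58222782) holds that of Igtp (chr11:58199556-58207591) almost whole, so reads of the pair could be split between them. Gbp2, Gbp6, Igtp and Irgm2 are marked as confounded. The list mean lay between 0.44 and 1.26 in naive libraries and between 4.37 and 6.51 in EAE-RIPK1inh libraries.

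**Figure D1:**
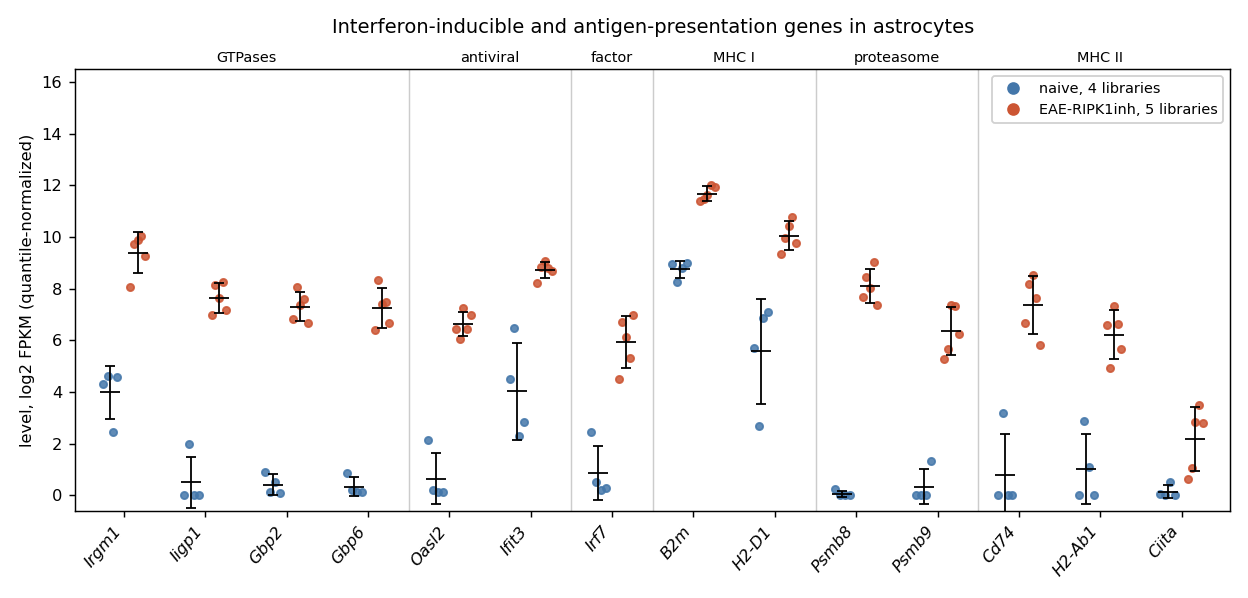
Levels of interferon-inducible and antigen-presentation genes in each astrocyte library (vertical axis, log2 FPKM after quantile normalization), with 4 naive points and 5 EAE-RIPK1inh points per gene and black bars for the mean and 1 SD. The 14 genes shown are a selection from the lists, and their groups do not overlap, as holds for 3.90% of all genes tested. Groups do not overlap for 12 of the 14 tested GTPases. They do not overlap for 3 of the 7 tested MHC class II genes, which are the 3 shown. The naive levels of Psmb8 are at most 0.25 while its EAE-RIPK1inh levels are at least 7.38.

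Promoter windows of 4 of these GTPase genes are printed because each holds the letters that interferon regulatory factors are known to read. The windows run from 250 bases before to 50 bases after a RefSeq start (GRCm38.p6), and capitals mark matches, on either strand and overlapping where they overlap, to GAAANNGAA (interferon regulatory factor type) or TTCNNNGAA (STAT type).
Gbp2, chr3:142620413-142620712, + strand: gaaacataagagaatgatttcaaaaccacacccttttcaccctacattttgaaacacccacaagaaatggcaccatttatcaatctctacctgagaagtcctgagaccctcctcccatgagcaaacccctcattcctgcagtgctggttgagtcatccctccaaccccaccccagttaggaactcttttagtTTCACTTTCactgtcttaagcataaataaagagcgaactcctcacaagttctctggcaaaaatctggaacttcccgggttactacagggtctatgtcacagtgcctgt
Irgm1, chr11:48871371-48871670, - strand: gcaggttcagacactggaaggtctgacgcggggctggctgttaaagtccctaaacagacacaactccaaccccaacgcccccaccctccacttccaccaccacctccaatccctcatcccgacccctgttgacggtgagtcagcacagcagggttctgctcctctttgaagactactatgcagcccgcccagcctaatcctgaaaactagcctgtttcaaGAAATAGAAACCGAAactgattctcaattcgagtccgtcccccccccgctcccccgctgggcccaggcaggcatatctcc
Igtp, chr11:58199306-58199605, + strand: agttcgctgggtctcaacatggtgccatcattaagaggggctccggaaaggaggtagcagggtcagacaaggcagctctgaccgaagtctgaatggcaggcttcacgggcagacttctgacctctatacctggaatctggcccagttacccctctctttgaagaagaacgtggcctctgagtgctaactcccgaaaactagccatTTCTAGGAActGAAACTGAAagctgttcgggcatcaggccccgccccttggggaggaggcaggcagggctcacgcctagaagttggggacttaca
Irgm2, chr11:58214727-58215026, + strand: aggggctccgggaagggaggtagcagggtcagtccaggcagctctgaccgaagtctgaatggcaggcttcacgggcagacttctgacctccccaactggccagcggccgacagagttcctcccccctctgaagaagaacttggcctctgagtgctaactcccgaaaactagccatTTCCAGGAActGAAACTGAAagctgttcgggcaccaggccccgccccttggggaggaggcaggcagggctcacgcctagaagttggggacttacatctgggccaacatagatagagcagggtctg
In Gbp2 the match began 58 bases before the start and in Irgm1 the outer of 2 overlapping matches began 30 bases before it. In Igtp and Irgm2 a STAT type match came 11 bases before the IRF type match, which began 34 and 64 bases before the start.

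A window was found for 8 of the 13 called GTPases, and all 8 held GAAANNGAA while 5 held TTCNNNGAA. The printed windows of Igtp and Irgm2 share long stretches, so the 8 are not separate cases. Over all 27025 genes with a window the shares were 9.76% and 9.55%. GAAANNGAA was in 8 of the 14 called type I interferon-stimulated genes with a window, in 77 of 416 genes called higher (18.5%) and in 60 of 523 called lower (11.5%), beside 739 of 8469 genes tested (8.73%). It was in 2 of 9 called MHC class I genes, 1 of 5 immunoproteasome genes, none of 3 called MHC class II genes and none of 9 called members of the potassium, water and glutamate list. These are counts of letters in one window a start and say nothing of binding.

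Of 32 listed type I interferon-stimulated genes 26 could be tested. Of these, 20 were called higher (76.9% beside 4.95% of all genes), none lower, and 10 had an adjusted p under 0.05. The median of those tested was 3.19 (log2). The rest of the list fell under the limit on the mean. Among them Oas3 had a mean of 0.55 in EAE-RIPK1inh and 0.86 in naive libraries. The others had higher means in EAE-RIPK1inh, such as Mx1 at 1.74 beside 0.04. Oasl2, an antiviral protein of the oligoadenylate synthetase family, was at 2.15, 0.20, 0.12 and 0.14 in naive and at 6.46, 6.05, 7.27, 6.45 and 6.97 in EAE-RIPK1inh libraries. Only naive 1 had signal for Oasl2 in its group. Ifit3, which acts with other IFIT proteins on foreign RNA, was at 4.50, 6.46, 2.29 and 2.85 in naive and at 8.24, 8.86, 9.08, 8.80 and 8.70 in EAE-RIPK1inh libraries, a difference of 4.71 (SE 0.62, adjusted p = 5.15e-05). The EAE-RIPK1inh levels of Ifit3 lay within 1 log2 unit of each other, while the naive levels spread over more than 4. Ifitm3, which blocks entry of viruses, differed by 4.91 (SE 0.71, adjusted p = 0.000178), Bst2, which tethers virus particles, by 5.13 (SE 0.80, adjusted p = 0.000596), and Isg15, a ubiquitin-like modifier, by 4.79 (SE 0.93, adjusted p = 0.00729). The list mean lay between 1.38 and 1.57 in naive libraries and between 3.32 and 4.88 in EAE-RIPK1inh libraries.

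Of the genes of interferon regulatory factors, Irf7, Irf9 and Irf1 were called higher. Irf7, which amplifies type I interferon production, was at 2.44, 0.54, 0.22 and 0.30 in naive and at 4.51, 6.73, 6.12, 5.34 and 6.98 in EAE-RIPK1inh libraries, a difference of 5.06 (SE 0.83, adjusted p = 0.000972; confounded). Irf9, a DNA-binding partner of STAT proteins, and Irf1 missed the adjusted threshold, with differences of 2.90 (adjusted p = 0.0829) and 3.63 (adjusted p = 0.116), both confounded. Stat3, which serves the gp130 cytokines, was not called at 0.63 (SE 0.55). Upstream of these factors, 1 of 14 tested interferon and gp130 receptors, JAK kinases and SOCS inhibitors was called higher (7.14% beside 4.95% of all genes). This was Socs1, at 1.82 (adjusted p = 0.438). Leaving out EAE-RIPK1inh 1 ended the call of Socs1, as did leaving out EAE-RIPK1inh 3 or 5 or naive 1, 2 or 4. The interferon gamma receptor gene Ifngr1 was at 4.67, 5.71, 4.36 and 4.88 in naive and at 1.70, 3.52, 6.68, 7.44 and 2.12 in EAE-RIPK1inh libraries, which lay on both sides of the naive range. Ifngr1 was not called, but it was called lower without EAE-RIPK1inh 3 and 4, the libraries above that range.

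Of 15 tested genes of MHC class I and peptide loading, 10 were called higher and 7 had an adjusted p under 0.05. B2m (ENSMUSG00000060802, chr2:122147686-122153083, + strand), the light chain shared by all class I molecules, was at 8.95, 8.26, 8.82 and 8.99 in naive and at 11.38, 11.48, 11.64, 12.02 and 11.93 in EAE-RIPK1inh libraries. The difference of 2.93 (SE 0.25, adjusted p = 1.53e-07) was thus many times the spread within either group. The class I heavy chain gene H2-D1 was at 5.69, 2.68, 6.86 and 7.09 in naive and at 9.36, 9.97, 10.42, 10.79 and 9.77 in EAE-RIPK1inh libraries, a difference of 4.48 (SE 0.60, adjusted p = 7.33e-05). H2-K1, the other classical heavy chain measured, differed by 2.04 (SE 0.43, adjusted p = 0.0152) and the nonclassical H2-T23 by 6.26 (SE 0.72, adjusted p = 9.79e-06). Heavy chain genes are near copies of each other, so their reads could be split among them. Tap1, a subunit of the transporter that brings peptides to class I molecules, differed by 4.06 (adjusted p = 0.0214) and Nlrc5, the class I transactivator, by 3.07 (adjusted p = 0.145). Pdia3, a chaperone of the loading complex, was the 1 member called lower, at -1.12 (adjusted p = 0.4). Its level in EAE-RIPK1inh 1 was 4.45, against 6.54 to 7.09 in the other EAE-RIPK1inh libraries, and the call was lost without that library or without any 1 of the naive libraries. B2m, H2-T23, Tap1, Nlrc5 and Pdia3 are marked as confounded.

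All 5 immunoproteasome genes were called higher. Their products replace catalytic subunits of the standard proteasome or cap it, and shift the peptides it makes. Psmb8 (ENSMUSG00000024338, chr17:34197721-34201454, + strand) had the smallest p of any gene. It was at 0.25, 0.01, 0 and 0 in naive, with signal in naive 1 alone, and at 7.69, 8.46, 8.03, 9.04 and 7.38 in EAE-RIPK1inh libraries. Psmb8 differed by 8.05 (SE 0.64, adjusted p = 7.7e-08; confounded), Psmb9 by 6.04 (SE 0.80, adjusted p = 5.63e-05; confounded) and Psmb10 by 2.25 (SE 0.46, adjusted p = 0.0116; confounded). The cap subunits Psme1 and Psme2 differed by 2.14 (adjusted p = 0.161) and 1.83 (adjusted p = 0.104), neither past the adjusted threshold. Psmb8 and Psmb9 were low in naive astrocytes while Psmb10 was at 4.71 to 5.64. Of 31 constitutive proteasome genes 3 were called higher (9.68% beside 4.95% of all genes), with a list median of 0.23. That count was 1 without naive 3 or 4 and 5 without EAE-RIPK1inh 5 or naive 1 or 2.

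MHC class II genes were higher as well, with 6 of 7 tested members called and 3 past the adjusted threshold. Cd74, the invariant chain that guards the class II groove, was at 0, 3.19, 0.0029 and 0.01 in naive and at 6.67, 8.20, 8.52, 7.64 and 5.84 in EAE-RIPK1inh libraries. The groups did not overlap, although naive 2 stood apart from the other naive libraries at 3.19. The difference was 6.58 (SE 0.80, adjusted p = 2.02e-05; confounded). The class II chain gene H2-Ab1 was at 0.02, 2.88, 1.11 and 0 in naive and at 6.59, 4.93, 7.32, 6.64 and 5.65 in EAE-RIPK1inh libraries, a difference of 5.22 (SE 0.82, adjusted p = 0.000596). H2-Aa and H2-Eb1, the genes of the other chains, differed by 4.46 (adjusted p = 0.0336) and 3.91 (adjusted p = 0.0812; confounded). Ciita, the class II transactivator, ranged from 0.65 to 3.50 in EAE-RIPK1inh libraries and differed by 2.03 (adjusted p = 0.327; confounded), a call lost without naive 4. Class II genes are carried by microglia, monocytes and dendritic cells too. The mean of the 10 list genes in EAE-RIPK1inh astrocytes, 2.48 to 4.19, lay below that in EAE-RIPK1inh microglia, 8.86 to 9.64, and met the lower end of that in naive microglia, 4.03 to 4.87.

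Markers of leukocytes moved with these lists. Of 8 tested T cell markers 5 were called higher (62.5% beside 4.95% of all genes). The mean of the 9 listed T cell markers was 1.41, 3.70, 5.84, 5.62 and 2.36 in EAE-RIPK1inh 1 to 5 beside 0.61 to 1.29 in naive libraries. Of 7 tested monocyte and neutrophil markers 5 were called higher, and the mean of the 9 listed ones was 1.71, 2.93, 6.09, 3.54 and 2.05 beside 0.07 to 1.84. Both lists were highest in EAE-RIPK1inh 3 and 4. Cd3g, a chain of the T cell receptor complex, was at 1.33, 7.13, 6.47, 7.93 and 4.50 in EAE-RIPK1inh libraries and at most 0.94 in naive ones, and Lyz2, the lysozyme of monocytes and macrophages, was at 4.22, 7.62, 10.13, 6.93 and 6.20 beside 0.97, 5.52, 0 and 3.49. The neutrophil marker Ly6g was at 0 in all 9 libraries. S100a8 and S100a9, of the same list, were not. S100a8 was at 2.56, 1.65, 9.73, 2.32 and 2.24 in EAE-RIPK1inh and at 0.04, 2.78, 0.05 and 0.07 in naive libraries. S100a9 was at 4.92, 1.27, 9.36, 1.49 and 5.10 in EAE-RIPK1inh and at 0.04, 2.60, 0.05 and 0.07 in naive libraries. Microglia markers gave 1 call among 8 tested, with means of 2.13 to 2.78 in EAE-RIPK1inh and 0.95 to 2.48 in naive libraries. Without EAE-RIPK1inh 3 and 4, 13 GTPase, 18 interferon-stimulated, 8 MHC class I, 4 immunoproteasome and 4 MHC class II genes were called higher, while the genes with an adjusted p under 0.05 fell from 102 to 26, of which 25 were among the 102. The GTPase mean was 4.37, 6.33, 6.15, 6.51 and 4.83 in EAE-RIPK1inh 1 to 5. How much the leukocyte transcripts add to each difference was not tested.

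**Figure D2:**
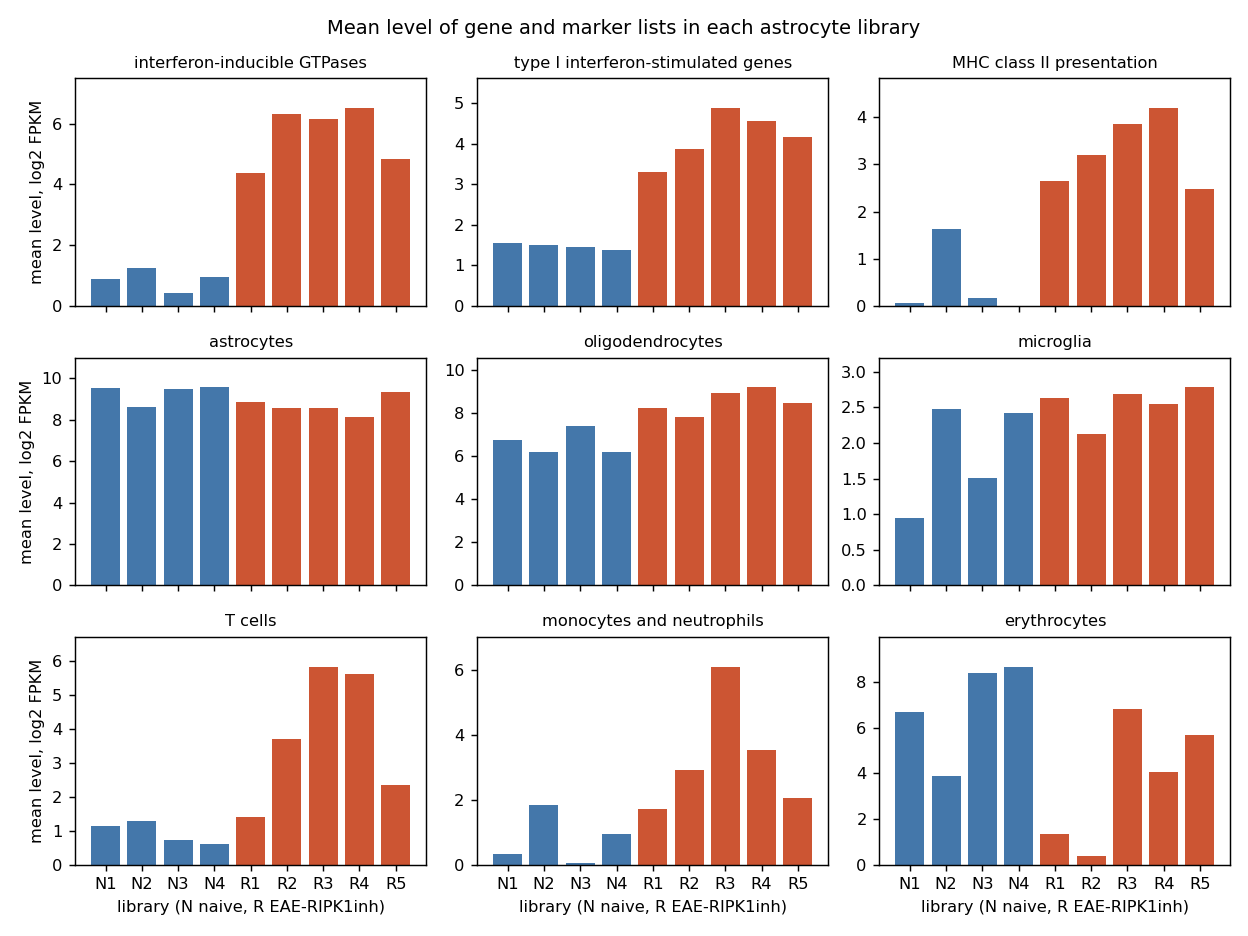
Mean level of 3 gene lists and 6 marker lists in each astrocyte library (vertical axis, mean log2 FPKM, starting at 0; horizontal axis, library, N1 to N4 naive and R1 to R5 EAE-RIPK1inh). The T cell mean is 5.84 and 5.62 in R3 and R4, the erythrocyte mean is 0.37 in R2 and 8.67 in N4, and the GTPase mean is at least 4.37 in every EAE-RIPK1inh library.

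Reactive astrocyte genes were higher in EAE-RIPK1inh, with 9 of 11 tested members of the panel shared by reactive states called and none lower. Gfap (ENSMUSG00000020932, chr11:102887336-102900912, - strand), the intermediate filament gene that marks reactive astrocytes, was at 10.46, 10.97, 9.83 and 10.13 in naive and at 12.43, 13.32, 13.12, 13.12 and 12.23 in EAE-RIPK1inh libraries. The groups did not overlap, and the difference was 2.50 (SE 0.26, adjusted p = 1.7e-06; confounded). Lcn2, an iron-binding acute phase protein, had signal in naive 2 alone at 2.44 and was at 7.84, 9.63, 7.86, 8.41 and 5.47 in EAE-RIPK1inh libraries. Vim, another intermediate filament gene, differed by 3.27 (SE 0.70, adjusted p = 0.0195) and Hspb1, a small heat shock protein, by 3.76 (SE 0.83, adjusted p = 0.0242). The protease inhibitor genes Timp1 and Serpina3n were called at 3.43 (adjusted p = 0.0608) and 1.92 (adjusted p = 0.105). For Lcn2 and Vim the lowest EAE-RIPK1inh library was EAE-RIPK1inh 5, at 5.47 and 4.17.

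Of the 12 genes of the panel that earlier work named A1, 8 could be tested and 7 were called higher, with a median of 6.29 (log2). Of those under the limit on the mean, Fbln5 and Amigo2 had lower means in EAE-RIPK1inh, 0.15 beside 1.69 and 0.15 beside 0.96. Ggta1 and Ugt1a1 had higher ones, 1.57 beside 0.02 and 0.10 beside 0.01. The 7 called members include Psmb8, Iigp1, Gbp2, H2-T23 and H2-D1, which are interferon-inducible and stand in the lists above. The panel thus adds Serping1 and Srgn, a proteoglycan core protein of leukocytes and other cells, to them. Of the panel named A2, 3 of 12 genes could be tested and all 3 were called higher, none past the adjusted threshold. S100a10, a partner of annexin, had the smallest p of them at a difference of 1.99 (SE 0.50, adjusted p = 0.0546). With so few A2 genes tested, no comparison of the panels was made.

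Complement genes were called higher in 7 of 13 tested cases (53.8% beside 4.95% of all genes), and 2 had an adjusted p under 0.05. C1qb was among those called, and its call was lost without naive 1 and 2. The list also holds C1qa, one of the microglia markers used here. It was at 0.71, 2.82, 2.22 and 4.78 in naive and at 5.33, 5.44, 5.37, 5.81 and 2.26 in EAE-RIPK1inh libraries. C4b, a component of the classical and lectin pathways, had signal in 1 naive library and was at 5.92, 5.98, 6.17, 5.81 and 6.86 in EAE-RIPK1inh libraries. Its difference was 6.14 (SE 0.79, adjusted p = 4.56e-05). Serping1, the inhibitor of the first complement component, was at 1.70, 8.33, 6.73, 7.85 and 7.31 in EAE-RIPK1inh and at or under 0.08 in naive libraries, and EAE-RIPK1inh 1 was far below the rest of its group. C3, the central component, differed by 3.45 (SE 1.07, adjusted p = 0.16; confounded). Of 15 tested chemokine and cytokine genes, 5 were called higher (33.3% beside 4.95% of all genes) and 1 lower (6.67% beside 5.99%). Cxcl10, a ligand of CXCR3, a chemokine receptor of activated T cells, was at 0.38, 0.19, 0.11 and 0.14 in naive and at 5.14, 6.29, 6.53, 6.07 and 6.99 in EAE-RIPK1inh libraries, with signal in 1 naive library (adjusted p = 5.15e-05; confounded). Tnf had no signal in any naive library and was at 3.89, 4.29, 2.39, 4.17 and 0.01 in EAE-RIPK1inh libraries. Ccl5, a chemokine that T cells also make, differed by 3.20 (adjusted p = 0.269) and was not called without EAE-RIPK1inh 3 and 4. Cxcl14 was the 1 member called lower, at -0.95 (adjusted p = 0.41), and the call was lost in 11 of 19 alternative settings, among them those without EAE-RIPK1inh 1, 2, 3 or 4 or naive 1, 3 or 4.

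The genes of the RIPK1 pathway itself gave 2 calls among 21 tested, both higher (9.52% beside 4.95% of all genes), and none past the adjusted threshold. The count was 4 without EAE-RIPK1inh 1 or 5 and 1 without EAE-RIPK1inh 4 or any 1 naive library. Ripk1 was at 0.06, 2.21, 1.296 and 0 in naive and at 0, 2.44, 1.63, 0.62 and 1.44 in EAE-RIPK1inh libraries, a difference of 0.34 (SE 0.77, adjusted p = 0.942; confounded). Ripk3 was at 0 in all 9 libraries. Mlkl, the executioner of necroptosis, had no signal in naive libraries and ranged from 0.29 to 3.53 in EAE-RIPK1inh ones without being called, though it was called when EAE-RIPK1inh 1 or 5 was left out. The called genes were Zbp1, a nucleic acid sensor that is itself interferon-inducible, at 1.46, 3.67, 5.60, 5.73 and 0.07 in EAE-RIPK1inh libraries, and Tnfrsf1b, a tumor necrosis factor receptor, at 0.62, 0.53, 3.71, 2.81 and 1.43, and neither had signal in a naive library. The call of Tnfrsf1b was lost without EAE-RIPK1inh 3 or 4 or any 1 naive library. Of 12 NF-kB subunits and feedback inhibitors, Nfkbiz alone was called higher (8.33% beside 4.95% of all genes), at 2.86 (adjusted p = 0.223).

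**Figure D3:**
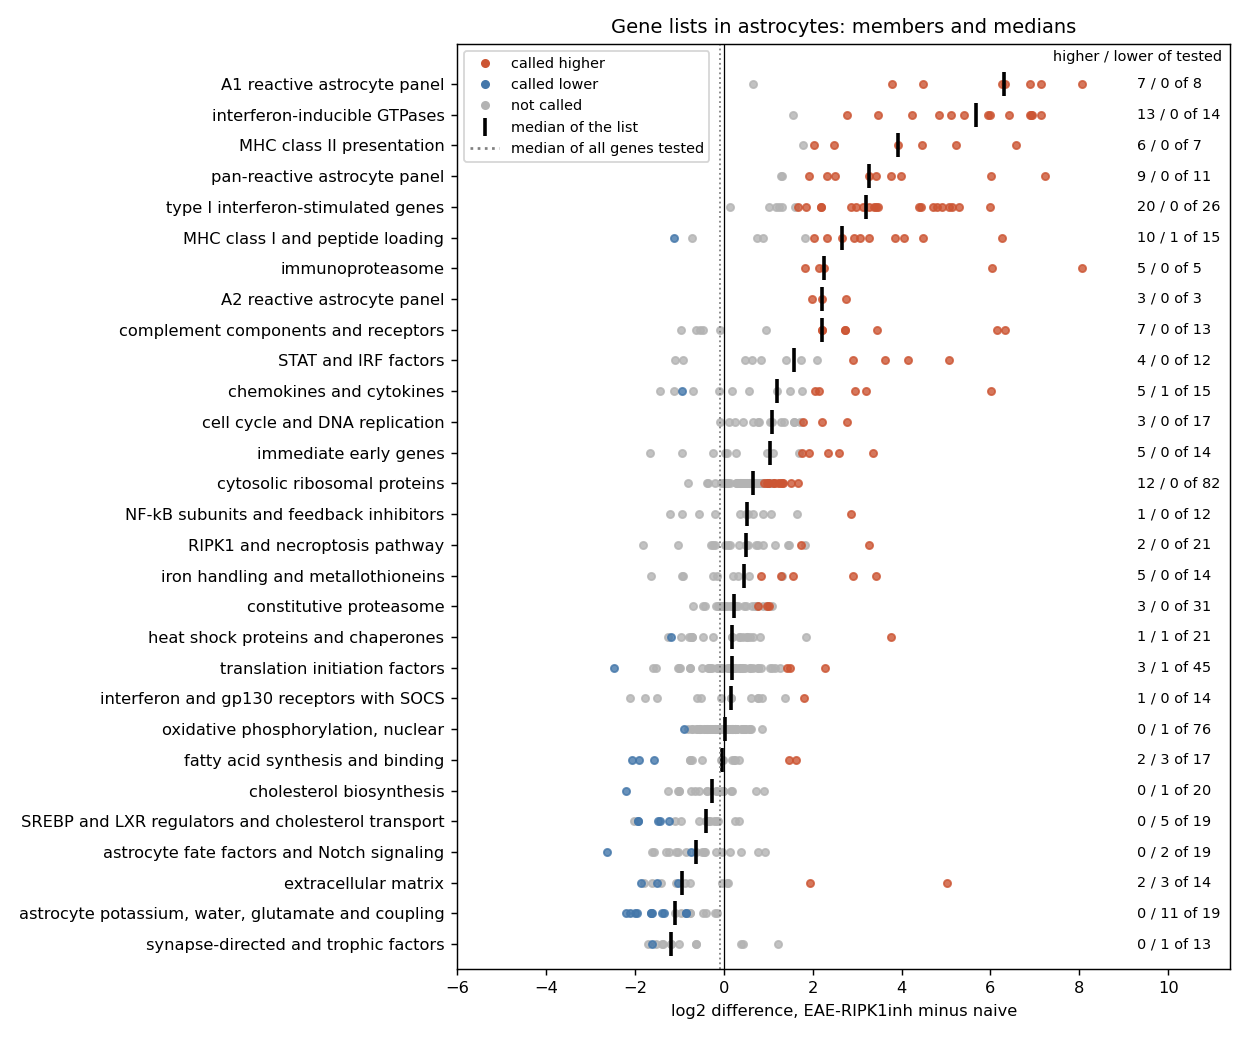
Log2 difference (horizontal axis, EAE-RIPK1inh minus naive) of each tested member of 29 gene lists (vertical axis), with red points for members called higher, blue for members called lower, grey for the rest, a black bar for the list median and counts at the right. List medians run from 6.29 for the A1 panel to -1.19 for synapse-directed and trophic factors, and the dotted line marks the median over all genes tested, -0.08.

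Genes of the astrocyte's supporting functions were lower in EAE-RIPK1inh. Of 19 tested genes of potassium, water, glutamate and gap junction handling, 11 were called lower, none higher, 4 had an adjusted p under 0.05, and the list median was -1.09. Gja1 (ENSMUSG00000050953, chr10:56377330-56402513, + strand), the main gap junction protein of astrocytes, was at 10.85, 10.57, 10.97 and 10.97 in naive and at 8.71, 8.24, 8.31, 8.06 and 10.85 in EAE-RIPK1inh libraries. EAE-RIPK1inh 5 was within the naive range and the other EAE-RIPK1inh libraries were well below it, with a difference of -2.01 (SE 0.41, adjusted p = 0.0115). Slc1a3 (ENSMUSG00000005360, chr15:8634124-8710764, - strand), the glutamate transporter GLAST on which the cells were sorted, was at 7.61, 7.25, 7.27 and 7.18 in naive and at 5.07, 5.33, 5.47, 4.79 and 5.45 in EAE-RIPK1inh libraries. Every EAE-RIPK1inh library was below every naive one, and the difference was -2.11 (SE 0.46, adjusted p = 0.0208; confounded). Gjb6, another connexin, differed by -1.63 (SE 0.37, adjusted p = 0.0268) and Atp1b2, a subunit of the sodium pump, by -1.60 (SE 0.37, adjusted p = 0.0293). Slc1a2, the glutamate transporter GLT-1, was called at -0.86 (adjusted p = 0.42; confounded) and lost the call without EAE-RIPK1inh 2, 3 or 4 or naive 1, 3 or 4. Among other identity genes, Aqp4, the water channel of the end feet, differed by -0.20 (SE 0.42) and the folate enzyme Aldh1l1 by 0.50 (SE 0.44), neither called (Aqp4 was called lower without naive 2), while Aldoc, a glycolytic enzyme, was lower by a difference of -1.11 (adjusted p = 0.0439).

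The count of 11 depended on single libraries. It was 16 without naive 2, 14 without EAE-RIPK1inh 5, 8 without EAE-RIPK1inh 4 or without naive 1, 3 or 4, and 7 without EAE-RIPK1inh 3 and 4. The list mean was 7.62, 6.97, 6.90, 6.66 and 8.43 in EAE-RIPK1inh 1 to 5 and 8.69, 7.51, 8.93 and 8.84 in naive 1 to 4, so that naive 2 lay inside the EAE-RIPK1inh range and EAE-RIPK1inh 5 inside the naive range. The oligodendrocyte markers moved the other way, with 6 of 7 called higher, and Mobp, a myelin protein gene, differed by 1.96 (SE 0.28, adjusted p = 0.000178; confounded). Erythrocyte markers were lower in EAE-RIPK1inh, with 4 of 5 called and means of 0.37 to 6.80 beside 3.88 to 8.67. Their part in the astrocyte genes was not tested.

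**Figure D4:**
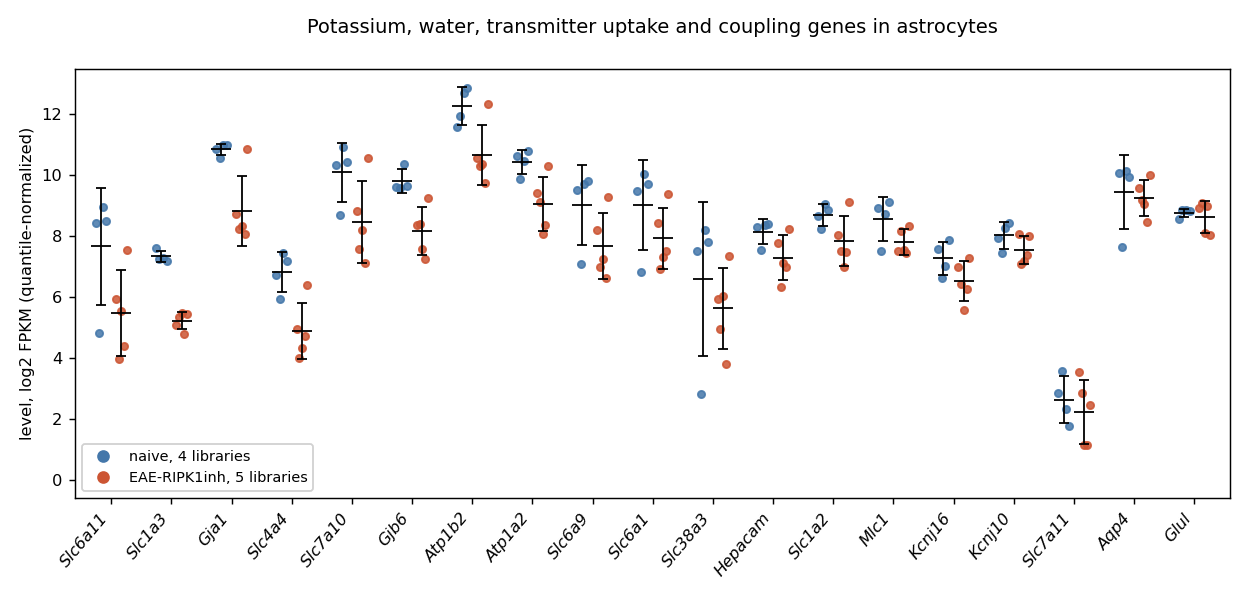
Levels of the 19 tested genes of potassium, water, transmitter uptake and coupling in each astrocyte library (vertical axis, log2 FPKM after quantile normalization), ordered by difference, with 4 naive and 5 EAE-RIPK1inh points per gene and black bars for the mean and 1 SD. All 19 differences are below 0, and groups do not overlap for 2 of the genes, Slc1a3 and Gjb6, beside 3.90% of all genes tested.

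Other genes with the smallest p values among those lower include several secreted and metabolic proteins of astrocytes. Sparcl1, also called hevin, a secreted protein that promotes synapses, was at 12.10, 12.32, 12.10 and 12.70 in naive and at 11.04, 10.67, 10.34, 10.46 and 11.48 in EAE-RIPK1inh libraries, a difference of -1.51 (SE 0.24, adjusted p = 0.000718; confounded). Slc39a12, a zinc transporter, was at 9.29, 10.38, 9.39 and 9.31 in naive and at 7.13, 6.47, 7.37, 6.73 and 8.85 in EAE-RIPK1inh libraries (adjusted p = 0.00398). Neither gene overlapped between groups. Gpt, a cytosolic alanine aminotransferase, was at 4.90, 5.58, 4.64 and 5.05 in naive libraries and had signal in EAE-RIPK1inh 4 alone of its group, at 0.74. Tmed1, a cargo receptor of the early secretory pathway, was at 6.17, 5.39, 6.13 and 6.66 in naive and at 0.31, 0.58, 0.20, 0.29 and 4.26 in EAE-RIPK1inh libraries, where EAE-RIPK1inh 5 stood near the naive levels (confounded). Cst3, the protease inhibitor cystatin C, Cd81, a tetraspanin, and Hsd11b1, which activates glucocorticoids, differed by -1.23, -1.44 and -2.30, all with an adjusted p under 0.05 (Cd81 and Hsd11b1 confounded). Of 13 synapse-directed and trophic factor genes 1 was called lower, and of 19 astrocyte fate and Notch pathway genes 2 were (7.69% and 10.5% beside 5.99% of all genes). Leaving out 1 library gave 1 to 3 for the first list, with 3 without naive 2, and 0 to 5 for the second, with 0 without EAE-RIPK1inh 4 and 5 without EAE-RIPK1inh 5. Their list medians were -1.19 and -0.62.

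Of 20 cholesterol synthesis genes 1 was called lower (5% beside 5.99% of all genes) and none higher. Leaving out 1 library gave 0 to 3 lower and 0 to 1 higher. The called gene was Dhcr7, the last enzyme of that route, at 5.48, 3.39, 6.41 and 6.20 in naive and 3.13, 2.36, 4.81, 0.23 and 5.37 in EAE-RIPK1inh libraries (adjusted p = 0.376). The call of Dhcr7 was lost in 8 of 19 alternative settings. Hmgcs1, an early enzyme, differed by 0.73 (SE 0.43) without a call, though it was called higher without EAE-RIPK1inh 3 or naive 1. Msmo1, a later one, was at 8.74, 7.07, 8.50 and 8.22 in naive and at 7.67, 6.49, 6.65, 6.05 and 8.82 in EAE-RIPK1inh libraries, also without a call. Msmo1 was called lower without EAE-RIPK1inh 1 or 5 or naive 2, with library quality weights and with the replicate number as a block. The list median was -0.27. Of 19 SREBP and LXR regulators and transport genes 5 were called lower (26.3% beside 5.99% of all genes). That count was 2 without EAE-RIPK1inh 2 or naive 3 or 4, 3 without EAE-RIPK1inh 3 or 4 or naive 1, and 7 without naive 2. Srebf1, the regulator of fatty acid synthesis, differed by -1.92 (adjusted p = 0.298; confounded). Apoe, the main apolipoprotein made by astrocytes, was at 13.71, 13.01, 14.48 and 14.48 in naive and at 12.23, 12.10, 11.93, 12.23 and 13.93 in EAE-RIPK1inh libraries, a difference of -1.44 (SE 0.32, adjusted p = 0.0264). Without EAE-RIPK1inh 5, at 13.93, the groups of Apoe would not overlap. Of 17 fatty acid genes 2 were called higher (11.8% beside 4.95% of all genes) and 3 lower (17.6% beside 5.99%). The 3 became 5 without EAE-RIPK1inh 5 and 1 without naive 4. Fabp7, a fatty acid binding protein of immature and reactive astrocytes, was higher by 1.47 (SE 0.34, adjusted p = 0.034) and Acsl3, which activates fatty acids, differed by -2.06 (SE 0.49, adjusted p = 0.0389; confounded).

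Iron handling genes gave 5 calls among 14 tested, all higher (35.7% beside 4.95% of all genes). Trf, the iron carrier transferrin, was at 5.84, 6.24, 6.69 and 4.88 in naive and at 8.46, 9.75, 9.43, 10.38 and 8.64 in EAE-RIPK1inh libraries, a difference of 3.42 (SE 0.44, adjusted p = 4.56e-05; confounded). Trf is made in the spinal cord mainly by oligodendrocytes, whose markers were higher in the same libraries, and their part in this difference was not tested. Fth1, the heavy chain of ferritin, was at 11.48, 12.70, 12.43 and 11.93 in naive and at 12.87, 13.93, 13.93, 14.20 and 13.51 in EAE-RIPK1inh libraries (adjusted p = 0.000718), and Ftl1, the light chain, differed by 1.299 (adjusted p = 0.073; confounded).

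Cytosolic ribosomal protein genes were shifted upward by small amounts. Of 82 tested, 77 had a positive difference, 12 were called higher (14.6% beside 4.95% of all genes), none lower, and none passed the adjusted threshold. The list median was 0.66, and the list mean lay between 5.16 and 5.35 in naive and between 5.65 and 6.27 in EAE-RIPK1inh libraries. Rps19 was at 6.53, 5.69, 5.75 and 6.39 in naive and at 7.68, 7.47, 8.17, 8.33 and 7.14 in EAE-RIPK1inh libraries, without overlap (difference 1.67, SE 0.42, adjusted p = 0.0596). The count of 12 became 18 with each library centred on its median and 2 without EAE-RIPK1inh 3 and 4, the libraries highest in leukocyte markers. Rpl23, Rpl15 and Rps6 were not called, with differences of 0.61, 0.31 and 0.42, nor were Eif3a and Pabpc1 at -0.49 and 0.42. Ribosomal protein genes have many processed copies, so their reads could be split. Of 45 translation initiation genes 3 were called higher and 1 lower, and of 76 nuclear genes of oxidative phosphorylation 1 was called lower, with medians of 0.18 and 0.02. Heat shock and chaperone genes gave 1 call in each direction among 21 tested, extracellular matrix genes 2 higher and 3 lower among 14, and cell cycle genes 3 higher among 17, beside 4.95% higher and 5.99% lower over all genes. Leaving out 1 library moved these counts, with 1 cell cycle gene called without EAE-RIPK1inh 3 or naive 1, 2 or 4 and 5 without EAE-RIPK1inh 1, and 1 matrix gene higher without EAE-RIPK1inh 3, 4 or 5 or naive 1, 3 or 4. No heat shock gene was lower without EAE-RIPK1inh 3 or 4 or naive 2, 3 or 4. The initiation count of 3 was 1 without EAE-RIPK1inh 3.

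The same treatments were also compared in microglia, and the difference between the cell types was tested in 18 libraries. The study gives the same set of mice for both cell types, but the labels do not say which libraries share a mouse. The libraries were treated as independent, so the p values of that test leave the sharing of mice out of account. The adjusted p of that test was under 0.05 for 55 genes (0.491%), 36 with a higher difference in astrocytes and 19 with a lower one. The count of 55 was 87 without astrocyte EAE-RIPK1inh 1, 110 without astrocyte EAE-RIPK1inh 5, and 31 to 36 without microglia EAE-RIPK1inh 2, 4 or 5 or microglia naive 2 or 4. Psmb8 differed by 8.05 in astrocytes and by 1.57 in microglia, where its naive mean was already 7.73, and the gap between the cell types was 6.48 (SE 0.52, adjusted p = 5.71e-08). Irgm2, Igtp, H2-T23 and B2m likewise had naive means of 4.19, 6.53, 6.97 and 12.53 in microglia and larger differences in astrocytes. Class II chains went the other way, H2-Aa differing by 4.46 in astrocytes and 9.91 in microglia and H2-Eb1 by 3.91 and 8.96. Iigp1 and Gbp2 did not pass this test, with differences of 7.14 and 6.90 in astrocytes and 7.79 and 7.58 in microglia.

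Several genes had differences of opposite sign in the cell types. Apoe was -1.44 in astrocytes and 3.13 in microglia (gap -4.57, adjusted p = 0.000502). Trf was 3.42 in astrocytes and -1.20 in microglia (gap 4.62, adjusted p = 0.000415), and Hspb1 was 3.76 and -3.07 (gap 6.83, adjusted p = 0.0156). Immediate early genes, which answer within minutes to stimulation and to cell handling, were called higher in 5 of 14 tested cases in astrocytes, none past the adjusted threshold and 3 without naive 1, 2 or 3, while their median was -2.02 in microglia. Junb was at 0.39, 3.33, 0.26 and 0.36 in naive and at 3.58, 5.17, 5.58, 4.55 and 3.36 in EAE-RIPK1inh astrocytes, and its mean went from 7.71 in naive to 5.59 in EAE-RIPK1inh microglia (gap 5.49, adjusted p = 0.0193). Fos differed by 2.60 in astrocytes and by -4.58 in microglia, and Btg2, an antiproliferative gene, by 2.34 and -3.15. The call of Btg2 in astrocytes was lost without naive 2 or 3. Gpt differed by -4.90 in astrocytes and 0.77 in microglia (gap -5.67, adjusted p = 0.0014), and Tmed1 by -4.96 and 0.46 (gap -5.42, adjusted p = 0.00746).

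**Figure D5:**
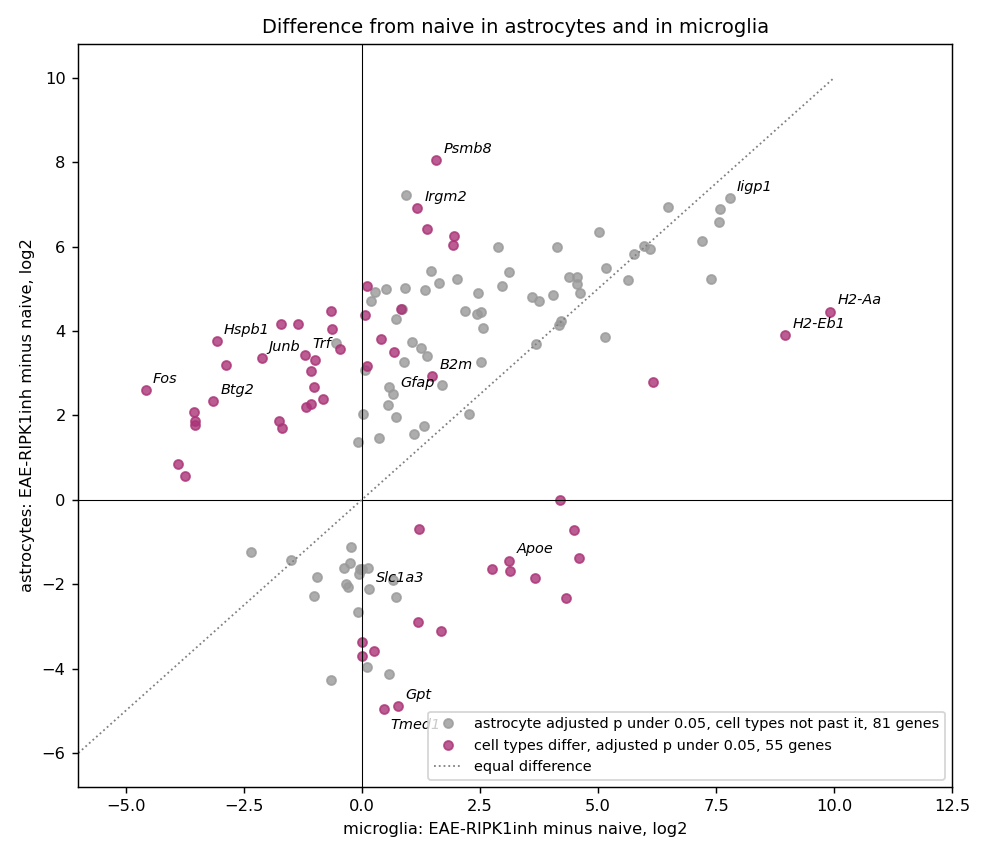
Log2 difference, EAE-RIPK1inh minus naive, in microglia (horizontal axis) and in astrocytes (vertical axis) for the 55 genes whose differences differed between the cell types at an adjusted p under 0.05 (purple) and for 81 further genes with an adjusted p under 0.05 in astrocytes (grey). Psmb8 lies far above the line of equal difference at 8.05 and 1.57, and H2-Aa far below it at 4.46 and 9.91.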

How the data were processed

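Oligo(dT)-primed cDNA libraries of sorted spinal cord cells were sequenced. The authors deposited log2 FPKM values, quantile-normalized over all 30 libraries after processing in OmicSoft Array Studio 10.1.1.3. The offset before the logarithm, the aligner and the build are not given in the sources used here. With no counts deposited, depth is unknown and no interval from counting can be given. Genes whose values in a library only followed the order of rows were taken as without signal.

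The values of the 9 astrocyte libraries were fitted with limma 3.58.1 in R 4.3.3 (lmFit, eBayes with trend), with treatment as the only term, over genes with a mean of at least 1. Calls needed a fold over 1.5 and an unadjusted p under 0.05, and adjusted p values are Benjamini-Hochberg over all genes tested. The study names a paired test, but the labels do not say what pairs mice, and deviations of libraries with the same number correlated at 0.02, 0.04, 0.02 and -0.01, so no block was used. The labels do not say that libraries came from separate experiments, so p values measure the spread between these libraries. Simulated data had the same means and spread, with each gene drawn on its own. There, 129 of 200 genes shifted by 2 (log2) and 193 of 200 shifted by 4 were called, and 6 and 132 passed adjustment.

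The genes and lists were chosen with earlier results of these data known. Genes were named as the 10 with the smallest p in each direction, up to 4 called members of each list, genes of the RIPK1 pathway or named by the study, and sort markers; of these, the ones that describe each group are given. Ciita, Tap1, Nlrc5, Pdia3, Psme1, Igtp, Isg15, Stat3, Ifngr1, Timp1, Serpina3n, Srgn, Cxcl14, Aldoc, Slc1a2, Cd3g, Lyz2 and Mobp were added after their values were seen. Two-library exclusions were also added then. Table positions equalled GENCODE vM21 for 122 of 122 named genes, and promoter windows came from RefSeq (GRCm38.p6). One result that the naming rule covers is not reported here.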

Additional observations from a re-analysis of the deposited data

Results flagged for a closer look

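In 38 of 220 groups of libraries examined, a single library lay farther from the rest of its group than Dixon's 95% critical value allows. For normal values about 1 in 20 would do so. Of the 38, 29 were in the naive group, 13 of them for naive 2, and 9 in the EAE-RIPK1inh group. Some of the 38, such as naive Tnf, hold values at or near 0, and the 220 groups share the same libraries. No excess over chance can therefore be read from the count. All values that follow are levels on the log2 FPKM scale, and for genes near the bottom of the scale a gap can be small in absolute size. EAE-RIPK1inh 1 stood apart for Pdia3 at 4.45, Igtp at 7.55, Irf1 at 1.17 and Serping1 at 1.70. EAE-RIPK1inh 2 stood apart for Timp1 at 6.37. EAE-RIPK1inh 4 stood apart for Gpt at 0.74. EAE-RIPK1inh 5 stood apart for Tmed1 at 4.26, Gja1 at 10.85 and Apoe at 13.93. Naive 1 stood apart for Psmb8 at 0.25, Gbp6 at 0.88, Irgm2 at 0.10, Oasl2 at 2.15, Irf7 at 2.44 and C3 at 0.62. Naive 2 stood apart for Cd74 at 3.19, H2-Aa at 2.67, H2-Eb1 at 2.46, Iigp1 at 2.00, Lcn2 at 2.44, Ccl5 at 2.59, Tnf at 0.0081, Slc39a12 at 10.38, Hsd11b1 at 7.70, Aqp4 at 7.64 and Junb at 3.33. The list mean of naive 2 stood apart for MHC class II presentation at 1.63 and astrocytes at 8.62. Naive 3 stood apart for Ciita at 0.52, Irgm1 at 2.46, Socs1 at 1.37 and Gjb6 at 10.38. The list mean of naive 3 stood apart for ependymal cells at 1.68. Naive 4 stood apart for Psmb9 at 1.35, Nfkbiz at 2.34, Fabp7 at 7.12 and Rpl23 at 6.74. The list mean of naive 4 stood apart for endothelial cells at 4.08.

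For 16 genes named above, the difference between EAE-RIPK1inh and naive differed between the cell types at an adjusted p under 0.05 in limma. The values are the difference in astrocytes minus that in microglia (log2). It was above 0 for B2m at 1.44, H2-T23 at 4.31, Psmb8 at 6.48, Psmb9 at 4.11, Irgm2 at 5.73, Igtp at 5.04, Hspb1 at 6.83, Trf at 4.62, Junb at 5.49, Fos at 7.18 and Btg2 at 5.49. It was below 0 for H2-Aa at -5.45, H2-Eb1 at -5.05, Gpt at -5.67, Tmed1 at -5.42 and Apoe at -4.57.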

How the results depend on the processing

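The 1226 called genes became 1906 with library quality weights and 979 to 1509 when each library was left out in turn, and no other setting moved that count by more than 1.5 times. The 102 genes with an adjusted p under 0.05 became 28 with no filter on the mean level, 543 with quality weights, 56 with a prior variance without the trend, 65 without naive 1 and 2, 26 without EAE-RIPK1inh 3 and 4, and 54 to 212 when each library was left out. The exclusions of 2 libraries were chosen after seeing the data. With the replicate number as a block, 1491 genes were called and 207 passed adjustment, although the numbers pair no libraries by the check made here. The 55 genes that differed between cell types became 263 with quality weights and 31 to 110 when each library was left out. No called gene that is named changed sign, while among those not called Eif3a, Rpl15, Pabpc1, Aqp4, Aldh1l1 and Ifngr1 did in at least 1 setting. Of the values for named genes, 2425 kept their side of the cutoff, 198 lost the call and 20 gained it. All 102 genes were also called under every setting, except 2 without the trend and 1 at a mean of at least 2, a limit it may have missed. That cutoff is looser than the adjusted p that chose them. With an adjusted p under 0.05, 25 of the 102 remained without EAE-RIPK1inh 3 and 4, 28 with no filter and 46 without the trend. With quality weights all 102 remained. With each library centred on its median, the median over all genes moved from -0.08 to 0.01. The causes were not tested. Psmb8, B2m, Irgm1, Gfap and Slc1a3 kept their calls in all 19 settings. Depth is unknown, so a gene listed at 0 may be unexpressed or missed.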
